A study of Mus musculus with 6 samples.

Results

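The LIM homeodomain factors described here are 10 genes, Lhx1, Lhx2, Lhx3, Lhx4, Lhx5, Lhx9, Isl1, Isl2, Lmx1a and Lmx1b, chosen by name from the 46517 gene IDs of each table. Their RNA was measured in 6 libraries of E14TG2a, a wild-type mouse embryonic stem cell line, at 3 stages with 2 libraries each. The mESC libraries come from untreated stem cells kept undifferentiated with the cytokine LIF on gelatin without feeder cells. The NPC and NC libraries come from the same line after neuronal differentiation by a published embryonic stem cell protocol. The design text names neuronal progenitors and glutamatergic pyramidal neurons as the later stages, and NC, which the labels do not spell out, is taken as the last of them. All 3 stages rest on this single line, every sample carries embryonic stem cells as its cell type, and the groups were therefore taken from the titles. The labels call the 2 libraries of a stage biological replicates without saying what sets them apart, so the p-values measure the spread between these libraries.

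LIM homeodomain proteins carry a pair of LIM domains, which bind partner proteins, in front of a homeodomain, which binds DNA. The LIM domains join them through the adaptor LDB1 into complexes, and the combination of family members in a young neuron is known for setting its class in the spinal cord and hindbrain. In those regions Lhx1 and Lhx5 mark several interneuron classes, Isl1 and Isl2 motor neurons, Lhx3 and Lhx4 motor neurons and V2 interneurons, Lmx1b the dI5 interneurons, Lmx1a the roof plate, and Lhx2 and Lhx9 the dI1 interneurons.

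Values are deposited TPM, an abundance per transcript length with an equal total for every library, so that levels can be compared between genes. The depth was estimated at between 1.57 and 2.27 Gb of aligned bases per library. All 37 mitochondrial genes were listed at 0 in every library, so a 0 is given only as listed, and no fold is given where both libraries of a stage were at 0. Of the 10 genes, 9 passed the filter of at least 1 TPM in at least 2 libraries, and Lhx9 did not. Changes were tested with limma on log2(TPM + 1) over 20232 genes, and a gene was called where its p, adjusted by Benjamini and Hochberg's method, was under 0.05. Fold changes are on that log2(TPM + 1) scale, which understates the change of low genes.

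The summed level of the 10 genes was 2.87 and 1.96 TPM in the mESC libraries, 128 and 189.7 TPM in the NPC libraries, and 423 and 474 TPM in the NC libraries. Lhx1 and Lhx5 together made up 86.5% and 86.2% of the sum in the NC libraries and 83.1% and 88.5% in the NPC libraries. Lmx1b was the next largest part in NC, at 8.69% and 8.23%. In mESC no member reached 1 TPM in either library.

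**Figure D1:**
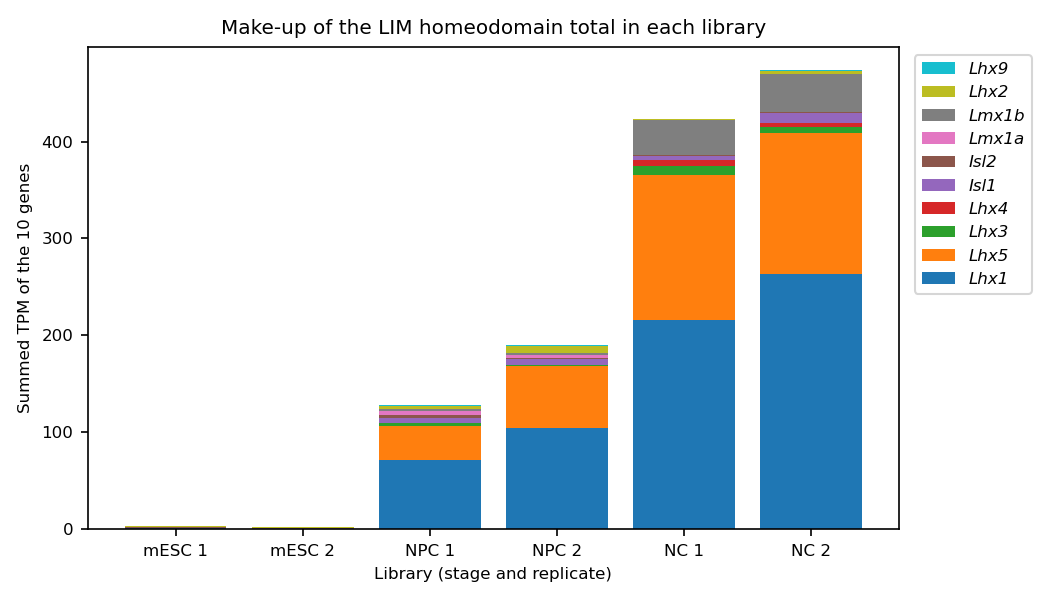
Summed TPM (linear axis) of the 10 LIM homeodomain genes in each of the 6 libraries, with the share of each gene in colour. The sums are 2.87 and 1.96 TPM for mESC, 128 and 189.7 TPM for NPC and 423 and 474 TPM for NC, and Lhx1 and Lhx5 fill most of each NPC and NC bar.

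Progenitors were compared with stem cells, and NC with progenitors, to ask which genes change at each step. Between NPC and mESC, 7 of the 9 tested members rose and none fell. Of all tested genes 40.0% were called in this comparison, 26.0% higher and 14.0% lower. The members that rose were Lhx1, Lhx2, Lhx3, Lhx5, Isl1, Lmx1a and Lmx1b. Between NC and NPC, 5 members rose, against 15.2% of all tested genes, and 1 fell, against 10.1%, with 25.3% of all tested genes called either way. Lhx1, Lhx3, Lhx4, Lhx5 and Lmx1b rose and Lmx1a fell at this step. Both comparisons use the NPC libraries and are therefore not independent. Between NC and mESC, which share libraries with both steps, 6 members were higher and none was lower, against 37.8% and 22.1% of all tested genes, or 59.9% either way. The members' median log2 fold change was 1.90 for NPC against mESC and 1.26 for NC against NPC, or 2.14 over 7 and 1.36 over 8 members with no stage at 0, beside 0.18 and 0.11 over all tested genes. A member that is high at only 1 stage passed the filter through that stage, so these counts and medians describe the members and support nothing further.

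The number of members called at the later step depended on the libraries. It was 6 with all libraries, 3 without NPC replicate 1 and 3 without NC replicate 1. Over all genes 5123 were called with all libraries, 309 without NPC replicate 1, 1276 without NPC replicate 2 and 3315 without NC replicate 2. Lmx1b, Lhx4 and Lmx1a were called under all 11 alternative settings at this step, and Lhx1, Lhx3 and Lhx5 kept their direction in all of them. Without NPC replicate 1 the calls of Lmx1b, Lhx4 and Lmx1a lay just under the threshold.

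**Figure D2:**
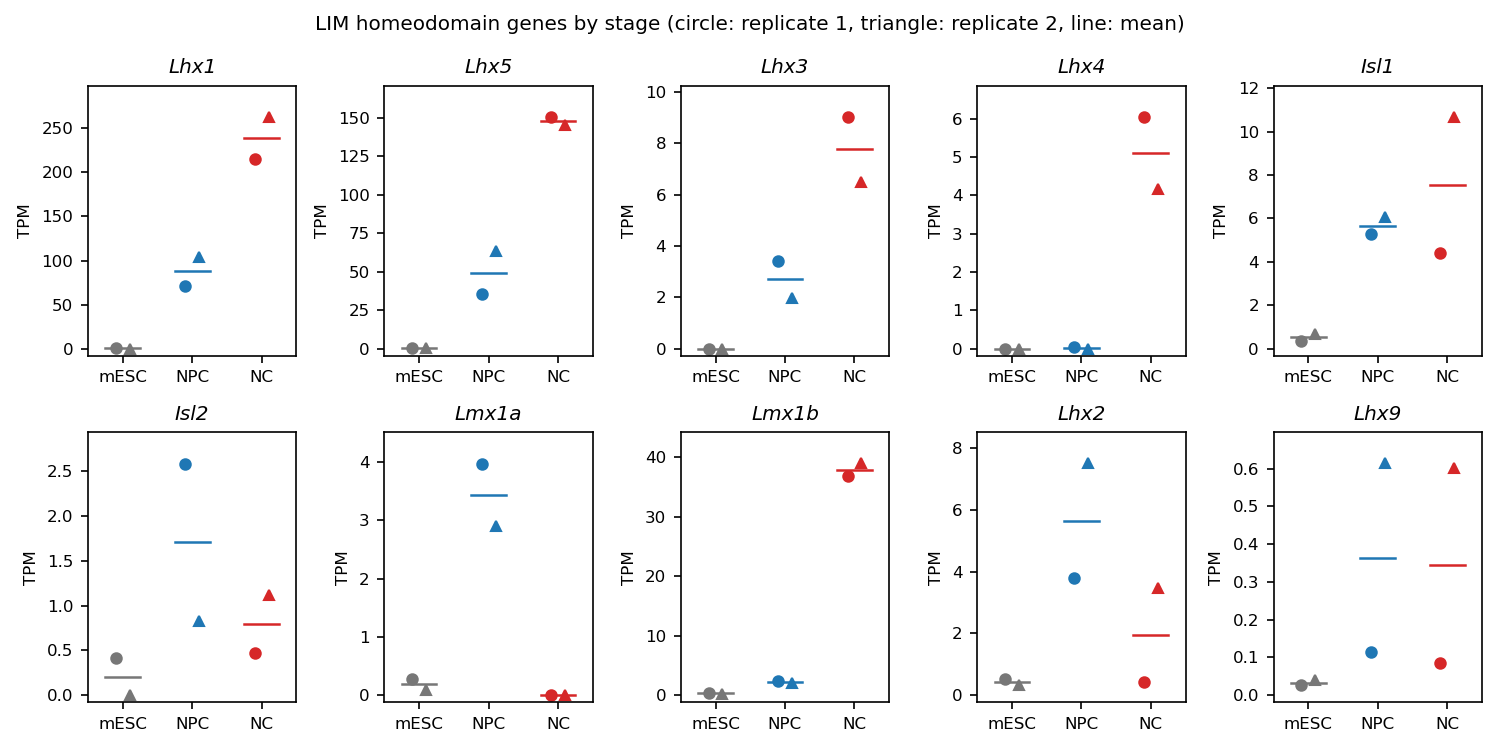
TPM (linear axis, scaled per gene) of each LIM homeodomain gene in the mESC, NPC and NC libraries. Circles are replicate 1, triangles replicate 2, and lines the mean of the 2 libraries. Lhx1, Lhx5, Lhx3, Lhx4 and Lmx1b are highest in both NC libraries, while Lmx1a is highest in both NPC libraries and listed at 0 in NC.

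Lhx1 and Lhx5 are close relatives that act in the anterior embryo and in interneurons of the spinal cord and hindbrain, and Lhx1 also in the early kidney. Lhx1 (ENSMUSG00000018698.14, chromosome 11, 84518284 to 84525535, mm10) stood at 0.767 and 0.0956 TPM in mESC, 70.9 and 104 TPM in NPC, and 216 and 263 TPM in NC. No library of one stage overlapped with another stage, and in NC Lhx1 was above 96.4% and 97.5% of the tested genes. It rose in NPC against mESC (log2 fold change 5.97, SE 0.29, limma's adjusted p = 4.75e-05) and again in NC against NPC (1.46, SE 0.29, limma's adjusted p = 0.0159). Lhx5 (ENSMUSG00000029595.9, chromosome 5, 120431699 to 120441223) stood at 0.133 and 0.447 TPM in mESC, 35.2 and 63.4 TPM in NPC, and 150.5 and 145.5 TPM in NC. Its stages did not overlap either, and the NC libraries lay closer to each other than the NPC libraries did. Lhx5 rose in NPC against mESC (log2 fold change 5.24, SE 0.30) and in NC against NPC (1.63, SE 0.30, limma's adjusted p = 0.0119).

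The later rise of these 2 genes was near the threshold. Lhx1 was called in 5 of 11 alternatives and lost the call without NPC replicate 1 (limma's adjusted p = 0.132), NPC replicate 2 (0.0588), NC replicate 1 (0.0601) or NC replicate 2, and with a pseudocount of 0.1 (0.159) or no filter (0.0691). Lhx5 was called in 6 of 11 and lost it without NPC replicate 1 (limma's adjusted p = 0.0855), NC replicate 1 (0.0655) or NC replicate 2 (0.0682), and with a pseudocount of 0.1 (0.0508) or no filter (0.0542). Their log2 fold changes at this step stayed between 1.18 and 1.73 for Lhx1 and between 1.21 and 2.04 for Lhx5 over the alternatives. The first rise of both was called in all 11. The TPM of Lhx1 was 1.43 and 1.81 times that of Lhx5 in the NC libraries and 2.01 and 1.65 times in the NPC libraries, so the ratios of the stages overlapped.

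Lhx3 and Lhx4 are paralogues that work with ISL1 in motor neurons, without it in V2 interneurons, and in the pituitary. They appeared at different stages. Lhx3 (ENSMUSG00000026934.14, chromosome 2, 26200212 to 26208289) had 0 TPM in each mESC library, 3.43 and 1.96 TPM in NPC, and 9.02 and 6.504 TPM in NC. Lhx3 was higher in NPC than in mESC (limma's adjusted p = 0.00403) and higher in NC than in NPC (log2 fold change 1.26, SE 0.31, limma's adjusted p = 0.0284). The later call held in 3 of 11 alternatives and was lost whichever library was left out, with an adjusted p of 0.0680 and 0.0678 without mESC replicates 1 and 2, 0.0809 and 0.162 without NPC replicates 1 and 2, and 0.0861 and 0.0501 without NC replicates 1 and 2. Lhx4 (ENSMUSG00000026468.13, chromosome 1, 155698031 to 155751684) was listed at 0 in both mESC libraries, at 0.0378 and 0 TPM in NPC, and at 6.05 and 4.17 TPM in NC. Its rise thus came at the later step (log2 fold change 2.57, SE 0.26, limma's adjusted p = 0.00323), where the NC libraries lay far above both NPC libraries. In NC the TPM of Lhx3 was 1.49 and 1.56 times that of Lhx4.

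Isl1 and Isl2 are known from motor and sensory neurons, and Isl1 also from heart and pancreas progenitors. Isl1 (ENSMUSG00000042258.12, chromosome 13, 116298281 to 116309689) stood at 0.351 and 0.691 TPM in mESC, 5.28 and 6.06 TPM in NPC, and 4.39 and 10.7 TPM in NC. It rose in NPC against mESC (log2 fold change 2.14, SE 0.40, limma's adjusted p = 0.00661), a call lost without mESC replicate 1 (0.0669), mESC replicate 2 (0.0530) or NPC replicate 2 (0.0561). The NC libraries lay on either side of both NPC libraries, and the change between NC and NPC did not pass (log2 fold change 0.25, 95% interval -0.70 to 1.21, limma's adjusted p = 0.682). Isl2 (ENSMUSG00000032318.11, chromosome 9, 55538672 to 55546180) stood at 0.416 and 0 TPM in mESC, 2.59 and 0.833 TPM in NPC, and 0.467 and 1.12 TPM in NC, with no change called at either step. For Isl2 the log2 fold change of NPC against mESC was 1.11 (95% interval 0.14 to 2.07, limma's adjusted p = 0.0691), and it was called without NPC replicate 2 (0.0473).

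Lmx1a and Lmx1b moved in opposite directions from NPC to NC. Lmx1a directs the roof plate and, with Lmx1b, midbrain dopaminergic progenitors, while Lmx1b also serves dorsal spinal and serotonergic neurons. Lmx1a (ENSMUSG00000026686.13, chromosome 1, 167689237 to 167848741) stood at 0.275 and 0.0913 TPM in mESC, 3.98 and 2.90 TPM in NPC, and was listed at 0 in both NC libraries. It rose in NPC against mESC (log2 fold change 1.90, SE 0.25, limma's adjusted p = 0.00171) and was lower in NC than in NPC (limma's adjusted p = 0.00398). Lmx1b (ENSMUSG00000038765.12, chromosome 2, 33560965 to 33640511) stood at 0.369 and 0.258 TPM in mESC, 2.35 and 1.98 TPM in NPC, and 36.8 and 39.0 TPM in NC. The 2 NC libraries were close together and far above the NPC libraries. Lmx1b rose at the later step (log2 fold change 3.62, SE 0.24, limma's adjusted p = 0.00286), after a smaller first rise (1.27, SE 0.24, limma's adjusted p = 0.00655) that was lost without NPC replicate 1 (0.0578). On the log2(TPM + 1) scale its later change exceeded that of Lhx4, while with a pseudocount of 0.1 it was 4.07 and that of Lhx4 5.45. In NPC the TPM of Lmx1b was 0.590 and 0.684 times that of Lmx1a.

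Lhx2, a factor of the eye field, the cortex and dI1 interneurons, was highest in the NPC libraries, and its relative Lhx9 was low throughout. Lhx2 (ENSMUSG00000000247.10, chromosome 2, 38339281 to 38369733) stood at 0.527 and 0.338 TPM in mESC, 3.79 and 7.51 TPM in NPC, and 0.428 and 3.47 TPM in NC. It rose in NPC against mESC (log2 fold change 2.16, SE 0.56, limma's adjusted p = 0.0232). That call was lost without mESC replicate 1 (limma's adjusted p = 0.122), mESC replicate 2 (0.154), NPC replicate 1 (0.0540) or NPC replicate 2 (0.144). Both NC libraries lay below both NPC libraries, but the 2 NC values were far apart and the change did not pass (log2 fold change -1.34, 95% interval -2.69 to 0.01, limma's adjusted p = 0.130). Without NC replicate 2 it was called (-2.16, limma's adjusted p = 0.0389). The deposited read depth over Lhx2 was at most 1.02, against 148 for Lhx1. This depth was low for the FPKM of Lhx2. In NPC replicate 2 Lhx2 had a depth of 1.02 at an FPKM of 3.38, and Isl1 3.16 at 2.72. The depth therefore cannot tell how many reads the Lhx2 values rest on. Lhx9 (ENSMUSG00000019230.13, chromosome 1, 138825186 to 138848577) stood at 0.0278 and 0.0391 TPM in mESC, 0.114 and 0.615 TPM in NPC, and 0.0854 and 0.602 TPM in NC, and was not tested. The family's other genes, which direct forebrain interneurons, were low as well. Lhx6 lay between 0.806 and 1.74 TPM in all 6 libraries with no change called at either step, and Lhx8 was listed at 0 in 5 libraries and at 0.311 TPM in NC replicate 1.

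**Figure D3:**
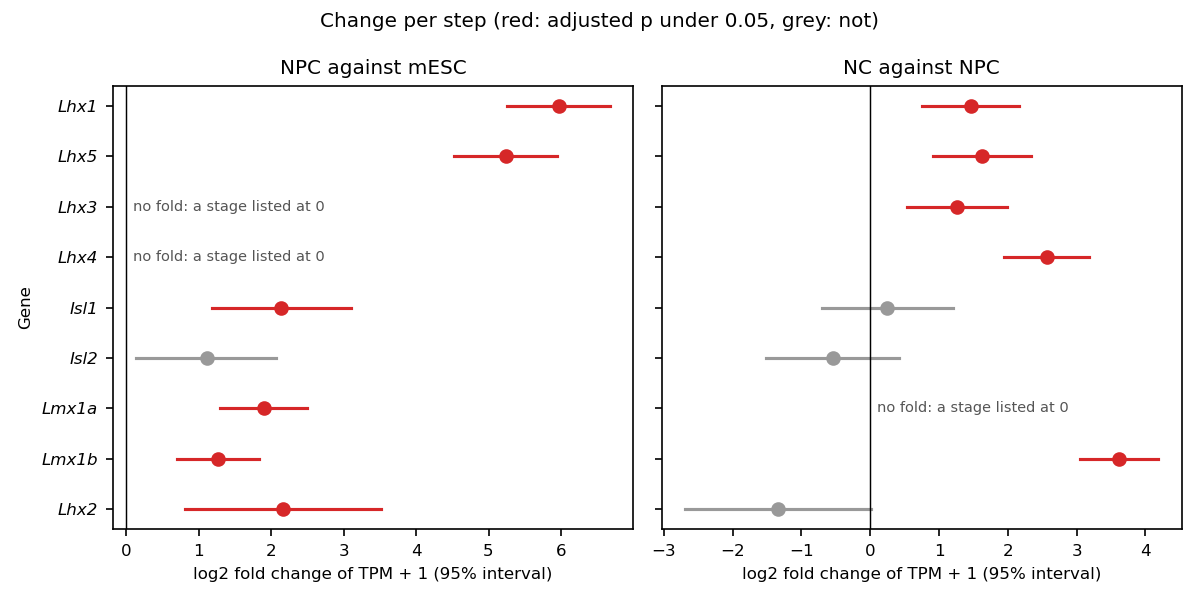
Log2 fold changes of TPM + 1 (horizontal axis, points) with 95% intervals from limma for the 9 tested genes, NPC against mESC on the left and NC against NPC on the right. Red marks an adjusted p under 0.05, and no fold is drawn where a stage is listed at 0 in both libraries. On the right Lmx1b is at 3.62 and Lhx4 at 2.57, an order that turns with a pseudocount of 0.1 (4.07 and 5.45), and on the left Lhx1 is at 5.97 and Lhx5 at 5.24.

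For 3 members the tables hold a noncoding RNA gene that lies within 5000 bases on the opposite strand and passed the filter. Because these pairs start close together, the windows around the RefSeq start sites of Lhx1 and Lmx1b are shown, with that of Lmx1a as the paralogue that moved the other way. The sequences are RefSeq promoter windows on GRCm38.p6, from 250 bases before the gene's start to 50 after it, written along the gene's strand with CpG dinucleotides, the sites of the DNA methylation named in the series' title, in capitals.
Lhx1: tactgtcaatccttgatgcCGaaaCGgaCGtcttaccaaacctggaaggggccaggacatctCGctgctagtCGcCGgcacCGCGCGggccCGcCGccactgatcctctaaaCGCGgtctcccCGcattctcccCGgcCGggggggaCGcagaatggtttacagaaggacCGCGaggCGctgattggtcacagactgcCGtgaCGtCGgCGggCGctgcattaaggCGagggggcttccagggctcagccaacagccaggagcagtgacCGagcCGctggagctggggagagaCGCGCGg
Lmx1b: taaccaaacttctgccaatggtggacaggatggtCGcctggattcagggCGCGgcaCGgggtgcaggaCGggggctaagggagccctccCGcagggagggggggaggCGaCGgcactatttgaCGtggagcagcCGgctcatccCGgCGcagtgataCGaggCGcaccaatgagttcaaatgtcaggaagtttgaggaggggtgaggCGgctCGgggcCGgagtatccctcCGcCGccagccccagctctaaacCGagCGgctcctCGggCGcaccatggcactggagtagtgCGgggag
Lmx1a: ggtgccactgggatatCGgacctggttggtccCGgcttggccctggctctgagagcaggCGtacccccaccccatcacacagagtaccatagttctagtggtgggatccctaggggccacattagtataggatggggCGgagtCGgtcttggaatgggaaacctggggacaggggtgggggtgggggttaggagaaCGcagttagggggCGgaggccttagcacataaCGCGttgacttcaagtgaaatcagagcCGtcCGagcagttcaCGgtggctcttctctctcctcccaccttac
They lie at chr11:84525485-84525784 (minus strand), chr2:33641049-33641348 (minus strand) and chr1:167689308-167689607 (plus strand). The Lhx1 window holds 31 CpGs, more than 89.4% of the 32851 windows in the table, the Lmx1b window 24, more than 80.0%, and the Lmx1a window 12, more than 60.4%, beside a median of 7. Windows were found for 9 of the 10 members, 11 in all, and ranged from 6 CpGs (Lhx9) to 37 (Isl1). The homeodomain core TAATTA, read on both strands, is in none of the 11 and in 5.29% of all windows. Methylation itself was not measured in these files.

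Lhx1os, a long noncoding RNA, starts 125 bases from the start of Lhx1 in the tables, at base 125 of the window shown. Lhx1os had 0 TPM in each mESC library, 42.4 and 71.5 TPM in NPC, and 182 and 212 TPM in NC. Its TPM was 0.845 and 0.806 times that of Lhx1 in NC and 0.598 and 0.685 times in NPC. It was higher in NPC than in mESC (limma's adjusted p = 3.89e-05) and rose in NC against NPC (log2 fold change 1.82, SE 0.27, limma's adjusted p = 0.00656). C130021I20Rik, a noncoding gene beside Lmx1b, starts at base 156 of the Lmx1b window, 682 bases from the start of Lmx1b in the tables, which lies beyond the end of that RefSeq window. The start of Lmx1a in the tables likewise lies outside its window, upstream of it. C130021I20Rik stood at 0.0352 and 0 TPM in mESC, 1.70 and 1.85 TPM in NPC, and 47.6 and 44.5 TPM in NC. C130021I20Rik rose at both steps, by a log2 fold change of 1.45 (SE 0.23, limma's adjusted p = 0.00369) and then of 4.08 (SE 0.23, limma's adjusted p = 0.00206). Gm27199, whose model overlaps the first 69 bases of Lhx5, had 0 TPM in each mESC library, 4.37 and 9.95 TPM in NPC, and 22.4 and 23.4 TPM in NC, between 0.124 and 0.161 times Lhx5. For Gm27199 the later rise (log2 fold change 1.64, SE 0.36, limma's adjusted p = 0.0214) was lost under 6 of 11 alternatives, and for Lhx1os it was lost without NPC replicate 1 (0.0583). In each of the 3 pairs the order of the stages was the same for both genes. The sources used here do not give the strand setting of the quantification. Reads in the 69 shared bases therefore cannot be assigned, while the models of the other pairs do not overlap.

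**Figure D4:**
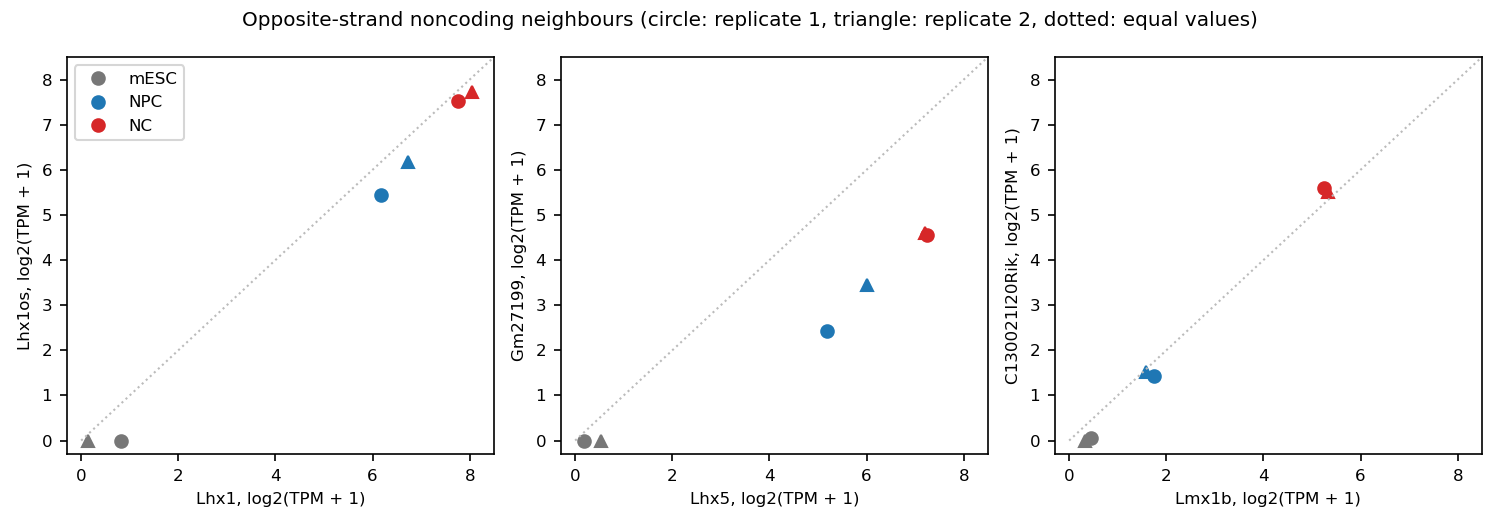
Log2(TPM + 1) of each opposite-strand noncoding gene (vertical axis) against its LIM homeodomain neighbour (horizontal axis) in the 6 libraries. Circles are replicate 1 and triangles replicate 2, and the dotted line marks equal values. NPC and NC points lie near the line for Lhx1os and C130021I20Rik and below it for Gm27199.

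The genes most like each member were taken as the 3 of 14318 other tested protein-coding genes with the smallest Euclidean distance over the 6 libraries, each profile of log2(TPM + 1) being centred on its own mean. For Lhx1 these were Nhlh2 (distance 0.636), Nefm (0.754) and Myt1 (0.784), and for Lhx5 Sept5 (0.413), Nsg1 (0.526) and Celf3 (0.528). Among those of Lhx4 were Ica1l (0.330) and Shox2 (0.350). Lhx3 lay nearest to Slc24a3 (0.223), Tmem229b (0.327) and Cxx1b (0.331). Lmx1b was nearest to Kirrel3 (0.421), Shc3 (0.594) and Stk32b (0.622), and Lmx1a to BC021891 (0.346), Gata5 (0.367) and Foxe3 (0.379). The nearest genes to Isl1 were Sema3c (0.397), Hsd11b2 (0.422) and Efnb2 (0.432). Those nearest to Isl2 were D3Ertd751e (0.305), Mfsd7c (0.334) and Tirap (0.438), and those nearest to Lhx2 were Cdon (0.585), Sfrp5 (0.733) and Trabd2b (0.765). For scale, Lhx1os, which is noncoding and was not searched, lay at 0.621 from Lhx1.

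LIM homeodomain proteins act with the adaptor LDB1, whose complex is held by SSBP proteins, and against the LMO proteins, which bind the adaptor without binding DNA. The list counts here and below stand beside 26.0% of all tested genes called higher and 14.0% lower in NPC against mESC. In NC against NPC these shares were 15.2% and 10.1%, and no list was tested against them. Of 6 adaptor genes 3 rose and 1 fell in NPC against mESC, and 3 rose in NC against NPC. Ldb1 was high at all stages, at 223 and 202 TPM in mESC, 254 and 289 TPM in NPC, and 369 and 395 TPM in NC. Ssbp2 rose to 31.4 and 35.8 TPM in NPC, against 3.19 and 4.99 TPM in mESC (log2 fold change 2.78, limma's adjusted p = 0.000280). Ssbp3 rose to 120.3 and 119 TPM in NPC, against 33.4 and 30.9 TPM in mESC (1.87, limma's adjusted p = 0.000389). Ssbp4 fell to 35.7 and 48.0 TPM in NPC, against 151 and 123 TPM in mESC (-1.69, limma's adjusted p = 0.00153). The adaptor calls of NC against NPC, Ldb1, Ssbp3 and Ssbp4, were each lost under at least 6 of 11 alternatives, and that of Ldb2 in NPC under 6. Rlim, a ubiquitin ligase for LDB1, was not called at either step.

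All 4 LMO genes rose in NPC against mESC and 2, Lmo1 and Lmo2, in NC against NPC. Lmo4 rose to 64.0 and 56.0 TPM in NPC, against 9.13 and 14.0 TPM in mESC (log2 fold change 2.30, limma's adjusted p = 0.000927), a call kept in all 11 alternatives. Lmo2 rose to 43.7 and 23.5 TPM in NC, against 4.55 and 2.74 TPM in NPC (2.86, limma's adjusted p = 0.00512), a call lost without NPC replicate 1 (0.0514). Lmo1 stood at 115 and 26.6 TPM in NC, against 10.4 and 12.2 TPM in NPC, and its NC libraries were thus far apart. Its later call was lost under 9 of 11 alternatives, and the first calls of Lmo1, Lmo2 and Lmo3 under 5 or 6.

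Genes of the neuron classes known for each member were compared next. Over all lists and the neighbouring genes, 52 of the 78 calls of NPC against mESC and 16 of the 67 calls of NC against NPC were kept in every alternative, so the counts of the later step depend on the libraries. Of 11 genes of the interneurons that express Lhx1 or Lhx5, 7 rose and 1 fell in NPC against mESC, and 9 rose and 1 fell in NC against NPC. The median log2 fold changes were 2.40 and 2.09, the first being 2.23 over the 10 genes with no stage at 0. Pax2, a factor of inhibitory interneurons, rose to 23.6 and 29.3 TPM in NPC, against 0.0980 and 0.154 TPM in mESC (log2 fold change 4.60, limma's adjusted p = 3.28e-05), and stood at 110.2 and 107 TPM in NC. Gad2, which makes GABA, rose to 73.0 and 75.4 TPM in NC, against 2.19 and 4.89 TPM in NPC (4.12, limma's adjusted p = 0.00293). Slc32a1, the vesicular transporter of GABA and glycine, rose to 61.4 and 78.4 TPM in NC, against 4.97 and 12.8 TPM in NPC (2.96, limma's adjusted p = 0.00562), and both calls held in all 11 alternatives. Ptf1a, which drives the inhibitory fate in dividing progenitors, stood at 0 and 0.274 TPM in NC, against 1.96 and 8.43 TPM in NPC, and was the 1 that fell. That call was lost under 6 of 11 alternatives, as was the later rise of En1, and that of Foxd3 was lost under 8 and that of Evx1 under 3.

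Of 7 V2 interneuron genes 5 were tested, and 3 rose in NPC against mESC, calls that Foxn4 lost under 9 of 11 alternatives and Gata2 under 5. Gata3, of V2b interneurons, rose to 11.4 and 8.49 TPM in NPC, against 0.907 and 0.292 TPM in mESC (2.79, limma's adjusted p = 0.000742). Of 10 motor neuron genes 9 were tested, 4 rose in NPC against mESC, and 2 rose and 2 fell in NC against NPC. Mnx1, the motor neuron factor HB9, stood at 0.603 and 0.595 TPM in mESC, 11.1 and 6.96 TPM in NPC, and 0.234 and 0.890 TPM in NC, rising (2.62, limma's adjusted p = 0.00148) and then falling (-2.68, limma's adjusted p = 0.00438). Olig2, of motor neuron progenitors, likewise fell to 0.690 and 0.285 TPM in NC, against 5.97 and 4.10 TPM in NPC (limma's adjusted p = 0.00573). The 2 that rose in NC against NPC were Slc5a7 and Phox2a. Slc5a7, the choline transporter, stood at 1.58 and 3.85 TPM in NC and was listed at 0 in both NPC libraries (limma's adjusted p = 0.0120, lost without either NPC replicate). Phox2a, a factor of hindbrain motor and noradrenergic neurons, stood at 5.71 and 9.54 TPM in NC, against 2.92 and 2.24 TPM in NPC, a call lost under all 11 alternatives. Slc18a3, the vesicular acetylcholine transporter, stood at 2.16 and 1.73 TPM in NC, against 0.928 and 0.939 TPM in NPC, and was not called at this step. Chat, which makes acetylcholine, was at most 0.569 TPM in any library and was not tested. The falls of Mnx1 and Olig2 were lost without NPC replicate 1 (0.0533 and 0.0572).

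Of 5 genes of the dI3 and dI5 interneurons, 2 rose and 1 fell in NPC against mESC, and 4 rose in NC against NPC. Tlx3, a partner of Lmx1b in dI5 interneurons, rose to 11.6 and 11.7 TPM in NC, against 0.654 and 2.02 TPM in NPC (log2 fold change 2.49, limma's adjusted p = 0.00581), and Prrxl1, another gene of these cells, to 19.5 and 8.003 TPM in NC, against 1.04 and 1.45 TPM in NPC (2.60, limma's adjusted p = 0.00790). Both were lost without NPC replicate 1 (0.0549 and 0.0788), and Prrxl1 also without NPC replicate 2 (0.0533). Pou4f2, the 1 that fell at first, rose later to 8.31 and 7.47 TPM in NC, against 0.0458 and 0.364 TPM in NPC (2.89, limma's adjusted p = 0.00314, kept in all 11 alternatives). Of 7 roof plate genes 6 were tested, and 5 rose in NPC against mESC and 4 fell in NC against NPC, with median log2 fold changes of 3.62 and -2.09. Wnt1 fell to 0.312 and 3.42 TPM in NC, against 29.5 and 91.2 TPM in NPC (-4.46, limma's adjusted p = 0.00767), and Msx1, a target of BMP signalling, to 13.0 and 14.9 TPM in NC, against 51.6 and 98.3 TPM in NPC (-2.27, limma's adjusted p = 0.00769). Both falls were lost without NPC replicate 2 (0.0527 and 0.0572), and Msx2, with a log2 fold change of -2.94, kept its fall in all 11 alternatives. Of 5 dI1 genes 4 were tested. In NPC against mESC 1 rose, beside 26.0% of all tested genes, and 2 rose in NC against NPC, beside 15.2%. Robo3, a guidance receptor of commissural axons, stood at 133 and 223 TPM in NPC, against 0.317 and 0.395 TPM in mESC (6.99, limma's adjusted p = 4.4e-05), while Atoh1, the factor that sets the dI1 class, was not tested.

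**Figure D5:**
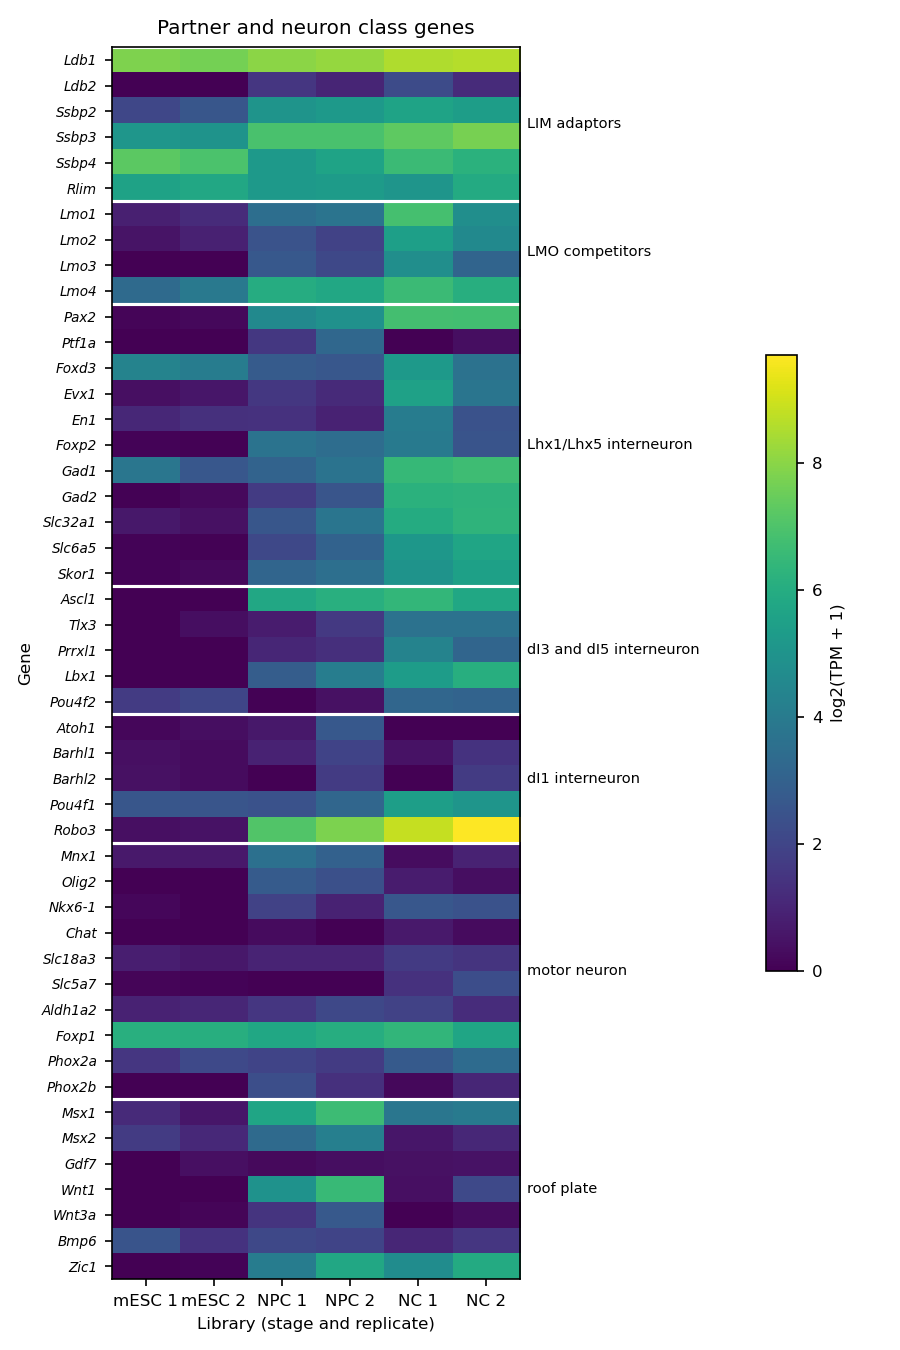
Log2(TPM + 1) (colour scale) of adaptor, LMO and neuron class genes in the 6 libraries, grouped by list. Pax2, Gad2 and Slc32a1 are brightest in the NC columns, Wnt1, Msx1, Mnx1 and Olig2 in the NPC columns.

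Other classes that use these factors were seen in part. Of 10 dopaminergic and serotonergic genes 5 were tested, 3 rose and 1 fell in NPC against mESC, and 2 rose and 1 fell in NC against NPC. Th, the rate-limiting enzyme of dopamine synthesis, rose to 22.2 and 44.0 TPM in NC, against 4.56 and 10.6 TPM in NPC (log2 fold change 2.01, limma's adjusted p = 0.0225, lost under 5 of 11 alternatives), whereas Pitx3, Slc6a3, Fev, Tph2 and Slc6a4 stayed under 1 TPM in every library. Of 7 eye field and cortical genes 3 were tested, 1 rose and 2 fell in NPC against mESC, and none was called in NC against NPC. Of 6 Cajal-Retzius genes, 4 rose at each step, among them Reln, which encodes reelin, at 65.2 and 78.8 TPM in NC, against 12.8 and 13.6 TPM in NPC (2.36, limma's adjusted p = 0.00296, kept in all 11 alternatives). Trp73, a defining gene of most Cajal-Retzius cells, was at most 2.15 TPM and was not called at either step.

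The stage labels were set against marker genes. All 6 pluripotency genes fell and all 6 neuron and 6 progenitor genes rose in NPC against mESC, and all 6 neuron genes rose again in NC against NPC, where 2 progenitor genes, Fabp7 and Vim, rose and 1, Pax6, fell. The first rise of Sox1 was lost under 10 of 11 alternatives, and the later calls of Fabp7, Pax6 and Vim under 6, 6 and 4. Of 9 pyramidal neuron genes 4 were tested, none rose in NPC against mESC and 1 fell, and 3 rose in NC against NPC. Slc17a7, another vesicular glutamate transporter, was the 1 that fell and was among the 3 that rose. It stood at 2.86 and 2.07 TPM in mESC, 0.382 and 0.712 TPM in NPC, and 3.21 and 1.69 TPM in NC. Its fall was lost under 5 of 11 alternatives and its later rise under 9. Of the factors that define cortical pyramidal neurons, Tbr1 and Fezf2 stayed at or under 0.502 TPM in all libraries, Emx1 was listed at 0 in both NC libraries, and Neurod6 stood at 14.7 TPM in NC replicate 1 and at 0 in NC replicate 2. Slc17a6, a vesicular glutamate transporter, rose to 28.9 and 21.6 TPM in NC, against 0.187 and 0.572 TPM in NPC (log2 fold change 4.25, limma's adjusted p = 0.00286). Neurod2, like Neurod6, was uneven and stood at 20.7 TPM in NC replicate 1 and at 0.219 TPM in NC replicate 2. Bcl11b, a factor of deep-layer cortical neurons and of other neurons, rose to 18.8 and 9.96 TPM in NC, against 0.817 and 2.65 TPM in NPC (2.52, limma's adjusted p = 0.0114, lost under 3 of 11 alternatives). The list was thus mixed, with Tbr1, Fezf2 and Emx1 at or near 0 in NC, and the stage is called NC throughout.

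Markers of other cells that use LIM homeodomain genes moved as well. Fibroblast markers rose for 5 of 6 genes in NC against NPC, and their sum was 609.7 and 708 TPM in NC, against 55.8 and 76.2 TPM in NPC, with 1 rise in NPC against mESC. Of 5 genes listed as kidney and intermediate mesoderm markers 3 were tested and all 3 rose in NPC. The call of Wt1 was lost under 6 of 11 alternatives. Pax8 rose again in NC, to 83.9 and 84.8 TPM, against 11.8 and 17.1 TPM in NPC. Pax2, of the list for Lhx1 and Lhx5 interneurons, did so too, at 110.2 and 107 TPM against 23.6 and 29.3 TPM. The values do not say which cells carried Pax8. Osr1 and Wt1 were lower in both NC libraries than in both NPC libraries, with no call. Osr1 stood at 2.31 and 2.07 TPM in NC, against 7.68 and 3.78 TPM in NPC. Wt1 stood at 0.996 and 5.12 TPM in NC, against 10.2 and 17.7 TPM in NPC. Six2 and Gdnf stayed at or under 1.21 TPM. Of 5 pituitary markers 2 were tested. Pou1f1 and Cga were listed at 0 in all 6 libraries, and Pitx1 rose in NPC and fell in NC, a fall lost without NPC replicate 1 (0.0514). Of 7 mesendoderm markers 2 were tested: Sox17 stood at 77.7 and 53.5 TPM in NPC, against 22.6 and 5.48 TPM in mESC, and fell in NC, calls lost under 4 and 5 of 11 alternatives, and Eomes fell in NPC, lost without NPC replicate 2 (0.0508). Cardiac markers numbered 3 tested of 6, with 1 fall in NPC and 1 rise in NC, and the sum of all 6 was at most 9.75 TPM in any library. Among sensory and autonomic neuron markers 5 of 6 were tested, 1 rose and 1 fell in NPC, and 2 rose in NC. Astrocyte markers had 2 of 5 tested, with 1 rise in NPC and none called in NC, and summed to 157 and 48.8 TPM in the NC libraries, while of 5 oligodendrocyte markers 2 rose in NPC, and 2 rose and 1 fell in NC. The part of these cells in the members' levels was not tested. In these bulk libraries fewer cells of a type and less RNA per cell cannot be told apart.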

How the data were processed

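RNA of 6 libraries (2 each of mESC, NPC and NC) was analysed from 1 gene table per library. Per the submitters' processing notes, the tools were StringTie 2.1.5, STAR 2.7.9a, cutadapt 3.4, FastQC, DESeq2 and R 4.0.3, with build mm10. The sources used here do not give their order, the annotation release or the strand setting. The deposited TPM and FPKM values, per the file headers, are StringTie abundances per transcript length, and the deposited coverage is the mean read depth over a gene. Repeated lines of a gene ID (2 to 5 IDs per table) were summed. The files hold no counts, so no counting interval can be given. The depth in Gb is an estimate, the commonest ratio of coverage to FPKM in a library. Between 38.3% and 39.8% of the genes at 1 FPKM or more had that ratio, and the others had another.

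limma 3.58.1 in R 4.3.3 (lmFit and eBayes with a trend) was fitted to all 6 libraries on log2(TPM + 1), with 1 coefficient per group and 3 residual degrees of freedom, two-sided. The script was tested on simulated data. Coordinates are those of the tables, and biotypes come from GENCODE vM21, matched by ID without version for 46005 IDs. The members and gene lists were chosen with earlier results of these data known. All members are named; from each other list up to 4 called genes with the largest change, or genes above 10 TPM in both libraries of a stage, were named, together with a few chosen after their values were seen. Alternatives were a pseudocount of 0.1, no filter, FPKM, median-of-ratios scaling, a replicate block and leaving out each library, on the same genes unless the filter was the choice changed. Some genes of the lists are not reported here.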

Additional observations from a re-analysis of the deposited data

How the results depend on the processing

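Of 297 refits of members (27 member comparisons under 11 alternatives), 264 kept direction and side of the threshold, 28 lost a call, 3 gained one and 2 changed sign, neither of them called. These 2 were Isl1 in NC against NPC (-0.31 without NC replicate 2, and up to 0.81 with another library left out) and Lhx2 in NC against mESC (-0.002 without NC replicate 2, and up to 1.64). Members called in NC against NPC numbered 6, and 3 with a pseudocount of 0.1, 3 with no filter, and 3 to 5 with a library left out, where a lone sample is assumed to vary like the other groups. Without one library, 5 to 7 members were called in NPC against mESC and 6 to 7 in NC against mESC. Genes called in all numbered 3166 with no filter in NC against NPC, and with a library left out 309 to 4156 there, 4032 (without NPC replicate 2) to 8484 in NPC against mESC and 9499 to 11187 in NC against mESC. The cause was not tested, beyond the fewer samples. Median-of-ratios scaling moved the median of all genes in NPC against mESC to -0.01. The share of calls that were higher was 52.7% after scaling and 65.0% before it in NPC against mESC, and 52.3% and 63.2% in NC against mESC, and no member's call changed under it.

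The replicate block rests on a shared number only: deviations of same-numbered libraries correlated at 0.0455 (NPC and mESC), -0.0703 (NC and NPC) and -0.0819 (NC and mESC) over 20232 genes. With the block 7, 6 and 6 members and 7368, 4247 and 11575 genes were called at the first step, at the later step and over both. How many reads the members under about 5 TPM rest on is not known, since there are no counts. Their read depth differed, at most 0.237 for Lhx9 and at most 3.95 for Lmx1a. The depth of Lhx2, at most 1.02, was low for its FPKM.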

Other observations

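All 5 genes of the dI1 list, and Lhx2 and Lhx9, were higher in replicate 2 than in replicate 1 at NPC. At NC this held for Barhl1, Barhl2, Robo3, Lhx2 and Lhx9, and not for Pou4f1 and Atoh1. In NPC, replicates 1 and 2 held Atoh1 at 0.525 and 5.39 TPM, Barhl1 at 0.887 and 2.89 TPM, Barhl2 at 0 and 2.22 TPM, Lhx9 at 0.114 and 0.615 TPM and Lhx2 at 3.79 and 7.51 TPM. In NC, replicates 1 and 2 held Barhl1 at 0.388 and 1.70 TPM, Barhl2 at 0 and 2.19 TPM, Lhx9 at 0.0854 and 0.602 TPM and Lhx2 at 0.428 and 3.47 TPM, while Atoh1 stood at 0.00432 and 0.000935 TPM. Pou4f1 stood at 42.6 and 31.9 TPM in the NC libraries and 4.47 and 8.10 TPM in the NPC libraries, and Robo3 at 465 and 830.3 TPM in the NC libraries and 133 and 223 TPM in the NPC libraries. The labels do not say that same-numbered libraries share a culture. The pattern was picked after the values were seen, most of these levels are low, and no test was made. A higher NPC replicate 2 was not particular to the dI1 list. In NPC replicates 1 and 2 the roof plate list summed to 111 and 272 TPM and the neuron list to 516.5 and 833 TPM. Other lists were lower in replicate 2, among them the LMO genes, at 84.3 and 74.2 TPM.

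The NC libraries also differed in Evx1, a factor of Lhx1-expressing V0 interneurons, at 45.5 and 12.7 TPM, and in En1, a factor of V1 interneurons, at 15.7 and 4.38 TPM, replicate 1 being higher in both. Foxp2, another gene of these interneurons, stood at 14.7 and 4.70 TPM. Others of the same list were higher in NC replicate 2, with Slc6a5 at 33.8 and 51.3 TPM, Skor1 at 30.6 and 44.8 TPM and Slc32a1 at 61.4 and 78.4 TPM in replicates 1 and 2. These genes too were picked after their values were seen.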
